A study of Rattus norvegicus with 12 samples.

Results

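The metalloproteinases that cut the extracellular matrix and shed membrane proteins, and the tissue inhibitors that block them, were followed in cultured rat retinal ganglion cells (RGCs) after treatment with endothelins. The members are all genes whose symbol is Mmp (matrix metalloproteinase), Timp (tissue inhibitor of metalloproteinases), Adam (a disintegrin and metalloproteinase) or Adamts (the Adam relatives with thrombospondin repeats) followed by a digit. There were 51 such genes among the 14217 genes that the array annotation names singly: 17 Mmp, 4 Timp, 18 Adam and 12 Adamts genes. They were measured by 74 probe sets, and a gene with several (15 of the 51) was read from its brightest probe set, by mean log2 signal over the 12 arrays.

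RGCs, the neurons that send the retina's output through the optic nerve, were panned with an antibody to the surface protein Thy-1.1 from Sprague-Dawley rat pups 4 to 6 days old. All 4 groups shared 7 days of serum-free culture with BDNF, CNTF and forskolin and then a night without trophic factors. The groups were cells given 100 nM ET-1, 100 nM ET-2 or 100 nM ET-3 for 24 h, and cells called untreated in the sample titles and vehicle-treated in their descriptions. Each group had 3 Affymetrix arrays numbered 1 to 3 as biological replicates. What the numbers mark, and whether pups were pooled, is not in the labels. In the main fits, p-values measure the spread left between arrays once shifts shared by a replicate number are removed. That spread may be partly technical. For the mean of the 3 endothelins, the 3 endothelin arrays of a number are set against its 1 untreated array. The spread then comes largely from differences among endothelin arrays of the same number. The SEs and p-values of that mean thus measure only in part how the difference from untreated varies between replicate numbers.

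Mmps are secreted or membrane-anchored zinc enzymes made as inactive precursors, and between them they cut collagens, laminins, fibronectin and proteoglycans. Adams are membrane proteins, some of which release the outer part of growth factors, cytokine precursors and adhesion proteins, while others have lost the catalytic site and act as receptors. Adamts enzymes are secreted and cut proteoglycans such as aggrecan and versican, and Timps bind the active site of Mmps and of some Adams and Adamts enzymes. Endothelins are vasoactive peptides that act through the endothelin A and B receptors, and in the retina Mmp9 is known for its part in RGC loss after injury.

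A run of 6 neighbouring Mmp genes on rat chromosome 8 (Mmp13, Mmp12, Mmp3, Mmp10, Mmp8 and Mmp7, in that order) is shown by sequence because its members include Mmp3, which had the largest difference among the tested members, and Mmp13 and Mmp10, whose endothelin arrays were high under 1 replicate number. The last 100 bases before the start used in the RefSeq promoter table are printed 5′ to 3′ on the plus strand of the GRCr8 build, with the letters TGANTCA (the binding motif of the transcription factor AP-1) and TATAAA (the TATA box, here also read on the other strand) in capitals. The intervals are chr8:12782729-12782828 for Mmp13, chr8:12866552-12866651 for Mmp12, chr8:12925181-12925280 for Mmp3, chr8:12974607-12974706 for Mmp10, chr8:13008790-13008889 for Mmp8 and chr8:13132943-13133042 for Mmp7.
Mmp13: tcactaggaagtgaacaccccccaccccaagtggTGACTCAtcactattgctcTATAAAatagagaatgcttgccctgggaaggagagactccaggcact
Mmp12: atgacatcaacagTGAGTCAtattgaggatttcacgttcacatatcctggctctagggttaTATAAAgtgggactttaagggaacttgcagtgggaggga
Mmp3: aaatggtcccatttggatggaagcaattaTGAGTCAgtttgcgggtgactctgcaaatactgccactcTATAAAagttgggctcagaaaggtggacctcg
Mmp10: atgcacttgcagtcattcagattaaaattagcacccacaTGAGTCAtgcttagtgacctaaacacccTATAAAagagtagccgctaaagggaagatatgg
Mmp8: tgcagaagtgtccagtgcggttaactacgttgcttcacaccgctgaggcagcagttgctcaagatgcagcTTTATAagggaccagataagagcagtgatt
Mmp7: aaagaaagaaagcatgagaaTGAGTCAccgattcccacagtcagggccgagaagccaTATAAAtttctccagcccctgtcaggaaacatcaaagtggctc
Of these 6 stretches, 5 held the AP-1 letters and 6 the TATA letters. The AP-1 letters began 66 bases before the start in Mmp13, 87 in Mmp12, 71 in Mmp3, 61 in Mmp10 and 80 in Mmp7. For Mmp3 and Mmp8 the gene record of the same assembly starts earlier, so that the last 14 and 17 printed bases lie inside those genes and the AP-1 letters of Mmp3 begin 57 bases before that start. A promoter was available for 30 of the 51 members. Within 250 bases before the start, searched on both strands, the AP-1 letters were in 6 of these 30 promoters (20.0%) and in 6.36% of the 27457 rat promoters, and the TATA letters in 9 of 30 (30%) and in 13.1%. The run held 5 of those 6 promoters with AP-1 letters and 6 of those 9 with TATA letters. The other TATA matches lay in Adamts1, Adamts7 and Adamts10. The run was chosen partly by its values, so these shares do not describe the families outside it. The 2 motifs share no position in the 6 printed stretches. The 1 member with AP-1 letters outside the run was Adam19, 169 bases before the start used and 121 before that of its gene record. The start used lay far past that of the gene record in Adam17 (14346 bases), Adam1a (3661), Timp1 (1456), Adam8 (666) and Mmp23 (473). The windows searched for these genes thus lie wholly inside them. In other members the step was smaller or 0. Timp1, Adam17 and Adamts7 had 0 AP-1 matches in the windows searched. A match describes letters in this window and says nothing of whether a factor binds there.

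Signal was the authors' MAS5 intensity, in which different probe sets have different responses, so a signal is compared between arrays, and signals of different genes are not read as different levels. A probe set was tested when its mean log2 signal was no lower than the median over the 31042 on the array, which corresponds to 147.5 on the linear scale. This held for 27 members, 12 Mmp, 3 Timp, 8 Adam and 4 Adamts genes, and the other 24 lay near background. Mmp13 lay just inside this limit with a mean signal of 157, and Adamts15 just outside it with 144. In 3 of the 27, Mmp3, Mmp7 and Mmp13, the untreated geometric mean lay under the limit, so they were tested through their endothelin arrays. Markers of RGCs lay above the median for 11 of 11 genes on the arrays, with summed signals of 86745 to 124532 with ET-1, 90294 to 127057 with ET-2, 86218 to 134577 with ET-3 and 84951 to 121332 untreated. Fibroblast markers were also present, with summed signals of 49267 to 54984 on the 4 arrays numbered 1, against 7821 to 10786 under number 2 and 6864 to 8413 under number 3. Array medians ran from 136 to 181, and the number of arrays, 3 a group, limits the precision.

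Endothelin treatment went with higher Timp1 and Adamts7, and with smaller changes in Adam17, Adam19, Adam23 and Mmp9, in fits that compare arrays sharing a replicate number. Differences are on the log2 scale, endothelin minus untreated, tested with limma, with Benjamini-Hochberg adjustment across 15521 tested probe sets and a threshold of 0.05. With ET-1, 1 of 27 tested members rose (Timp1; 3.7%, against 1.51% of all probe sets higher, and 1.73% called in either direction). With ET-2, 2 of 27 rose (Timp1 and Adamts7; 7.41%, against 1.28% higher and 1.6% in either direction). With ET-3, 4 rose (Timp1, Adamts7, Adam19 and Mmp9) and 1 fell (Adam23), which is 18.5% against 2.64%. Of all probe sets, 2.13% were called higher and 0.509% lower with ET-3. For the mean of the 3 endothelins, 4 rose (Timp1, Adamts7, Adam17 and Adam19) and 1 fell (Adam23), 18.5% against 4.88%. The median difference of the 27 members was 0.10 with ET-1, 0.12 with ET-2, 0.085 with ET-3 and 0.047 for their mean, against -0.027, -0.023, -0.029 and -0.028 over all probe sets tested. All these comparisons share the same 3 untreated arrays.

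Without the replicate number as a block, limma called 0 of 27 members in each of these comparisons. The counts also moved with single arrays. With ET-1 the count was 0 without ET-1 replicate 1 or ET-1 replicate 2, 2 without untreated replicate 1 and 6 without untreated replicate 3. With ET-2 it was 0 without any of the ET-2 replicates 1, 2 and 3, 1 without untreated replicate 2 and 5 without untreated replicate 3. With ET-3 it was 1 without ET-3 replicate 1 or ET-3 replicate 2, 2 without ET-3 replicate 3 and 3 without untreated replicate 1 or untreated replicate 2. For the mean of the 3 endothelins it was 3 without untreated replicate 1 and 9 without untreated replicate 3. In that comparison, leaving out an untreated array gave the same differences as leaving out its whole replicate number. These fits thus do not single out the untreated array.

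**Figure D1:**
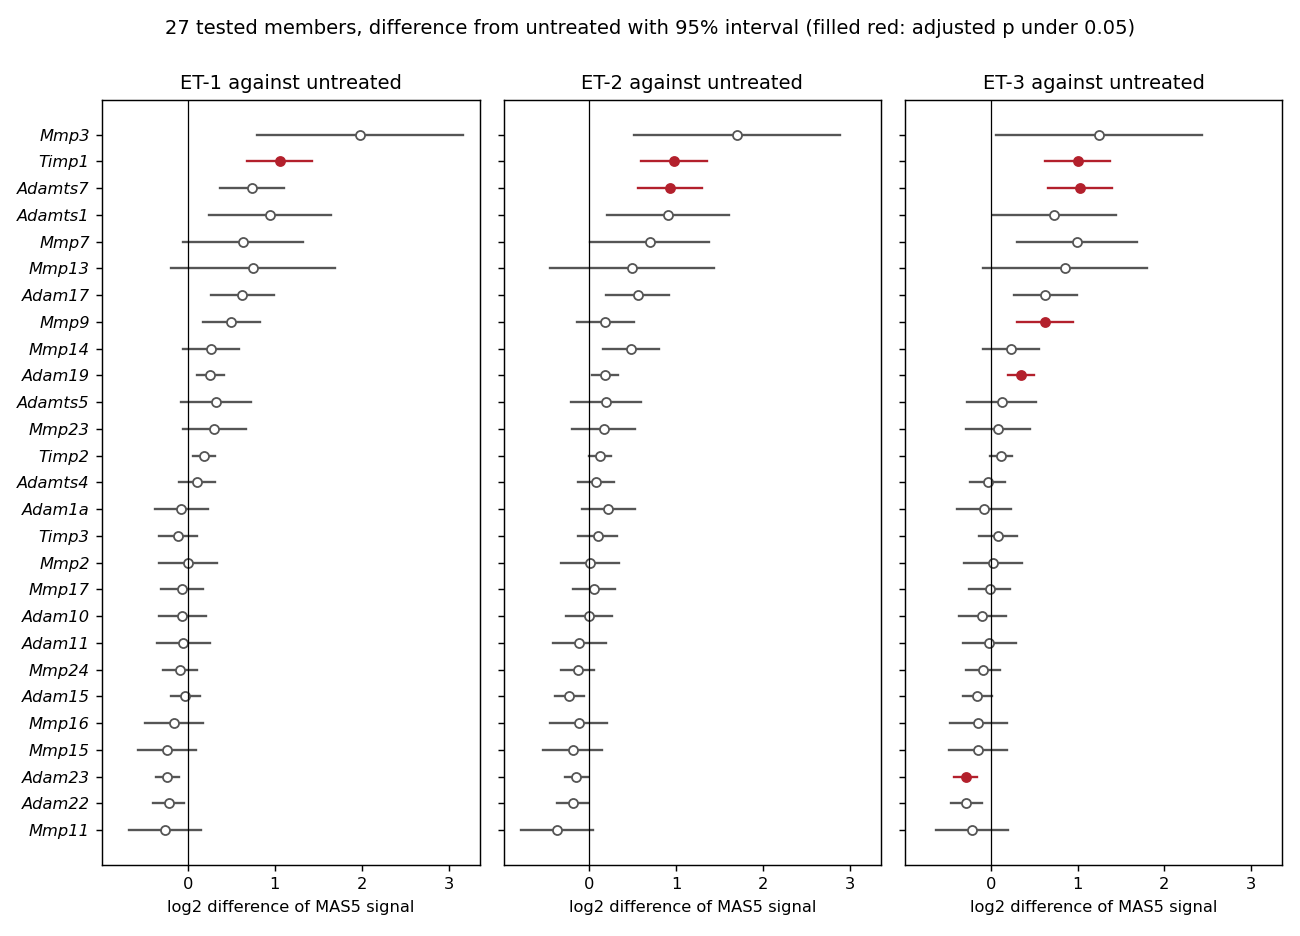
Log2 difference of MAS5 signal from untreated (horizontal axis) for the 27 tested members, with ET-1, ET-2 and ET-3 in separate panels, bars for 95% intervals and filled red points for an adjusted p under 0.05. Timp1 lies near 1 in each panel, while Mmp3 has the largest differences (1.98, 1.70 and 1.24) and also the widest bars.

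Among the inhibitors, Timp1, a secreted inhibitor of most Mmps, rose with each endothelin. Its signal under replicates 1, 2 and 3 was 8763, 2313 and 1598 with ET-1, 8717, 2101 and 1496 with ET-2, 9489, 1917 and 1594 with ET-3, and 2854, 1206 and 1049 untreated. Each of the 9 endothelin arrays stood above the untreated array of its own number, but the ranges overlap, since untreated replicate 1 lay above every endothelin array of the numbers 2 and 3. The difference was 1.05 with ET-1 (adjusted p = 0.00817), 0.97 with ET-2 (0.0188) and 1.002 with ET-3 (0.0101). Their mean was 1.01 ± 0.14 (SE), a 2.01-fold difference (adjusted p = 0.00173). The mean fold over the 3 endothelins was 3.15 under replicate 1, 1.74 under replicate 2 and 1.49 under replicate 3. The call for the mean of the endothelins held in 21 of 22 alternatives and was lost without the replicate block. The calls for single endothelins were lost without ET-1 replicate 1 (adjusted p = 0.0527) or ET-1 replicate 2 (0.062), without ET-2 replicate 1, 2 or 3 (0.129, 0.0648 and 0.0703), and without ET-3 replicate 1 (0.0763).

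No other Timp gene passed the test. Timp2, which inhibits Mmps and takes part with Mmp14 in activating Mmp2, had 4556, 3505 and 4024 with ET-1, 4719, 3065 and 3957 with ET-2, 4781, 3118 and 3808 with ET-3, and 4072, 3026 and 3584 untreated. It was higher in 9 of 9 comparisons under a shared number, by 0.14 on average (adjusted p = 0.106). The second tested probe set of Timp2 had geometric means of 238 with ET-1, 299 with ET-2, 264 with ET-3 and 224 untreated. There, ET-1 replicate 2 (121) lay under its untreated array (139). Timp3, which binds to the matrix and also inhibits Adam17 and the aggrecan-cutting Adamts enzymes, had 1123, 1587 and 502 with ET-1, 1141, 1798 and 677 with ET-2, 1178, 1687 and 686 with ET-3, and 1139.99, 1431 and 700.4 untreated. Its mean difference was 0.020 (adjusted p = 0.917; 95% interval -0.16 to 0.20), and the groups overlap throughout. Timp4 lay near background, with 30.4 to 76.1 on the endothelin arrays and 35.1 to 58.6 on the untreated arrays.

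**Figure D2:**
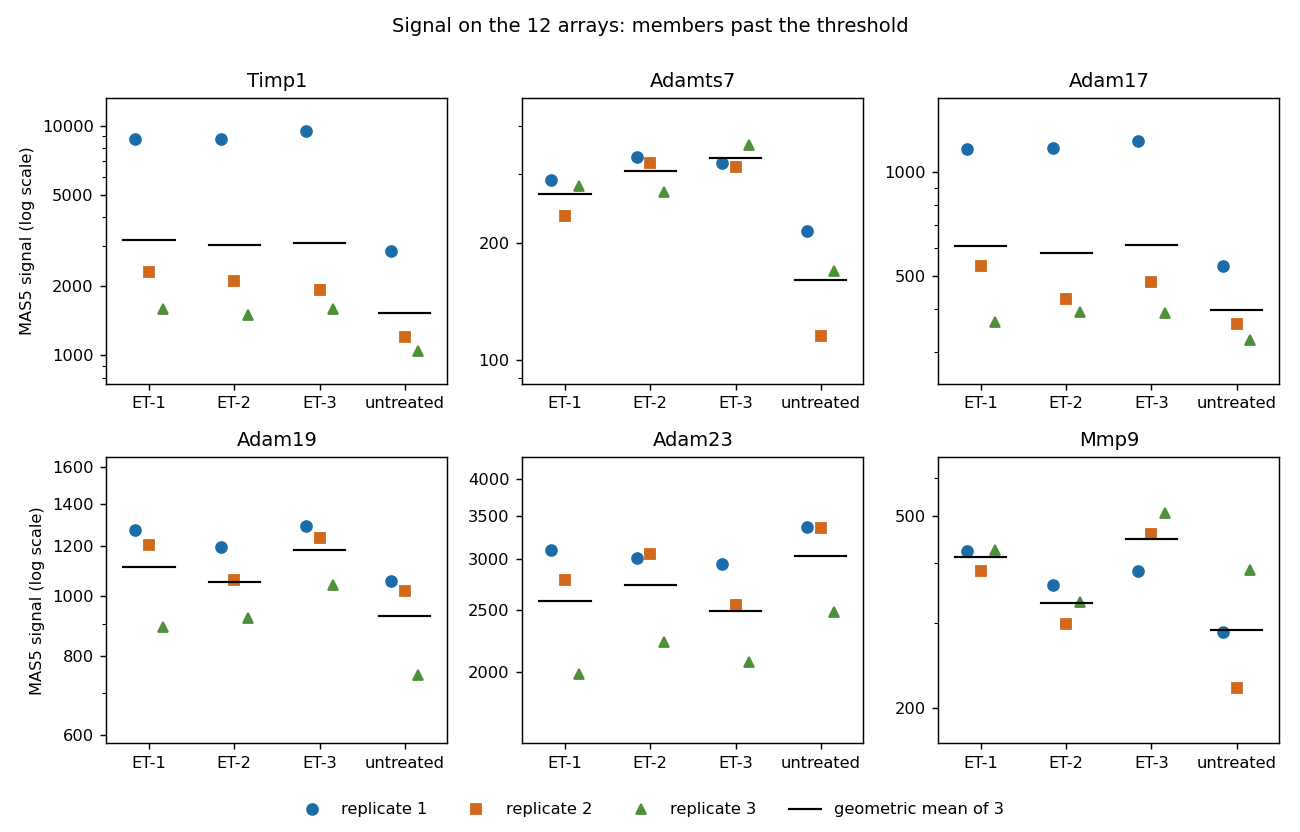
MAS5 signal (vertical axis, log scale) on each of the 12 arrays for the 6 members past the threshold in any comparison with untreated; symbols give the replicate number and lines the geometric mean of 3 arrays. Timp1 and Adam17 are highest under replicate 1 in every group, whereas the 9 endothelin arrays of Adamts7 (235 to 357) all lie above its 3 untreated arrays (115 to 215).

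Of the Adamts enzymes, Adamts7, which cuts cartilage oligomeric matrix protein and is known from vascular smooth muscle, rose. Its signal was 291, 235 and 281 with ET-1, 333, 321 and 271 with ET-2, 321, 314 and 357 with ET-3, and 215, 115 and 169 untreated. It was the 1 member of 27 (3.7%) whose 9 endothelin arrays did not overlap the untreated ones, against 1.15% of all probe sets tested. The difference was 0.73 with ET-1 (adjusted p = 0.0514), 0.93 with ET-2 (0.0195) and 1.03 with ET-3 (0.00766), and for their mean 0.90 ± 0.14 (SE; 1.86-fold, adjusted p = 0.00297). The call for the mean held in 19 of 21 alternatives and was lost without the block (0.583) and without the 4 arrays of replicate number 2 (0.0591). The ET-2 call was lost without ET-2 replicate 1, 2 or 3 (0.112, 0.0962 and 0.0527) or untreated replicate 2 (0.053), and the ET-3 call without ET-3 replicate 2 (0.0608).

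Adamts1, Adamts4 and Adamts5 did not pass the test. Adamts1, which cuts versican and aggrecan, had 3013, 658 and 290.0 with ET-1, 3201, 508 and 322 with ET-2, 3147, 490.0 and 240.3 with ET-3, and 729.8 untreated under number 1, with 414 and 267 under the numbers 2 and 3. The endothelin arrays thus stood 4.27-fold above the untreated one under replicate 1, 1.32-fold under replicate 2 and 1.06-fold under replicate 3. The mean difference was 0.86 (adjusted p = 0.0852), with a call gained only without untreated replicate 3 among the alternatives run (adjusted p = 0.0194). Adamts5, an aggrecan-cutting enzyme, had 1300 (ET-1), 1185 (ET-2), 1094 (ET-3) and 665 (untreated) under replicate 1, and 158 to 307 with endothelin under the numbers 2 and 3, against 165 and 356 untreated. Its mean difference was 0.21 (adjusted p = 0.446). The second tested probe set of Adamts5 had geometric means of 338 with ET-1, 349 with ET-2, 308 with ET-3 and 256 untreated. There, ET-3 replicate 3 (187.1) lay just under its untreated array (187.2), and the other endothelin arrays lay above theirs. Adamts4, another aggrecan-cutting enzyme, ran from 632 to 768 with endothelin and from 617 to 812 untreated, a mean difference of 0.047 (0.765).

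Among the Adams, Adam17, the sheddase that releases tumour necrosis factor and ligands of the epidermal growth factor receptor, rose for the mean of the endothelins. Its signal was 1168, 533 and 367 with ET-1, 1179, 427 and 392 with ET-2, 1234, 479 and 390 with ET-3, and 533, 362 and 324 untreated. All 9 differences under a shared number were upward, 2.24-fold on average under replicate 1, 1.32-fold under replicate 2 and 1.18-fold under replicate 3. The mean difference was 0.60 ± 0.14 (SE; 1.52-fold, adjusted p = 0.0253), and no single endothelin passed the threshold (0.62, 0.55 and 0.63; adjusted p = 0.0887, 0.134 and 0.0695). Without untreated replicate 1 the difference was 0.32 (adjusted p = 0.124), and it was the same without all arrays of replicate number 1 (0.271). The call held in 14 of 22 alternatives and was also lost without ET-1 replicate 2 (0.0514), ET-2 replicate 1 (0.0525) or ET-3 replicate 1 (0.0507). Adam10, the other main sheddase, which cuts Notch and the amyloid precursor protein, ran from 173 to 322 with endothelin and from 173 to 335 untreated, a difference of -0.056 (0.785).

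Adam19, which sheds neuregulin, rose with ET-3 and for the mean. It had 1272, 1203 and 891 with ET-1, 1193, 1061 and 922 with ET-2, 1292, 1234 and 1038 with ET-3, and 1054, 1017 and 748 untreated. The steps were small and upward under every number, 0.35 with ET-3 (adjusted p = 0.0221) and 0.26 ± 0.06 (SE) for the mean (1.199-fold, 0.0228). The second tested probe set of Adam19 had a mean difference of -0.12 (adjusted p = 0.549), so the probe sets disagree. The call for the mean held in 14 of 22 alternatives and was lost with each array centred on its median (0.0542) and without untreated replicate 1 (0.0796) or untreated replicate 3 (0.0792). The ET-3 call held in 5 of 17 and was lost with median centring (0.0545) and without ET-3 replicate 1, 2 or 3 (0.0763, 0.0879 and 0.0885), untreated replicate 1 (0.0529) or untreated replicate 3 (0.052).

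Adam23, which lacks the catalytic site and binds the secreted neuronal protein LGI1, was the member that fell. It had 3097, 2786 and 1982 with ET-1, 3009, 3054 and 2227 with ET-2, 2946, 2541 and 2068 with ET-3, and 3374, 3356 and 2478 untreated. Each endothelin array lay under the untreated array of its number. The difference was -0.29 with ET-3 (adjusted p = 0.0279) and -0.23 ± 0.05 (SE) for the mean (0.0228), where the signal was 0.855 times the untreated one. Its second tested probe set gave -0.12 for the mean (adjusted p = 0.692). The call for the mean held in 15 of 22 alternatives and was lost without untreated replicate 2 (0.0947) or untreated replicate 3 (0.0622). The ET-3 call held in 5 of 17 and was lost without ET-3 replicate 1, 2 or 3 (0.0825, 0.134 and 0.0523), untreated replicate 2 (0.0796) or untreated replicate 3 (0.0538). Adam22, the other catalytically inactive LGI1 receptor, had 1737, 1835 and 1893 with ET-1, 1764, 2116 and 1726 with ET-2, 1647, 1870.2 and 1739 with ET-3, and 2226, 2380.3 and 1808 untreated. Its mean difference was -0.23 and did not pass the test (adjusted p = 0.0714). It passed in 4 of 22 alternatives. These were median centring (0.0188) and the fits without replicate number 3 (0.0292), ET-1 replicate 3 (0.0447) or untreated replicate 3 (0.0122). The fits without replicate number 3 and without untreated replicate 3 gave the same difference, -0.34. The second tested probe set of Adam22 had geometric means of 143 with ET-1, 173 with ET-2, 163 with ET-3 and 199 untreated. There, replicate 3 of ET-2 (243) and ET-3 (269) lay above the untreated array (224). The remaining tested Adams, Adam1a, Adam11 and Adam15, had mean differences of 0.021, -0.065 and -0.14, with adjusted p from 0.22 to 0.938.

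Of 27 tested members, 6 (22.2%) had all 9 differences under a shared number in 1 direction, namely Timp1, Timp2, Adamts7, Adam17 and Adam19 upward and Adam23 downward. The same held for 13.6% of all probe sets tested. Beside these results, the summed signal of 8 pericyte and smooth muscle markers was 7545 to 10918 with ET-1, 7482 to 8952 with ET-2, 8851 to 10460.3 with ET-3 and 4032 to 6842 untreated. Of that list 5 of 8 genes were tested, while Rgs5, Cspg4 and Des lay near background. For the mean of the endothelins 4 rose, Acta2 by 0.55, Tagln by 0.72, Cnn1 by 0.63 and Pdgfrb by 1.02. Each of the 4 had an adjusted p under the threshold. Myh11 was tested and not called. It had 156, 318 and 401 with ET-1, 155, 320 and 508 with ET-2, 149, 297 and 369 with ET-3, and 148, 284 and 358 untreated. Of the sums, Tagln alone gave 5201 to 8217 with endothelin and 2708 to 5003 untreated. Fibroblast marker sums were 8413 to 51408 with ET-1, 6864 to 54984 with ET-2, 7148 to 49267 with ET-3 and 7191 to 49984.5 untreated. Of 7 fibroblast markers tested none rose and 1 fell (Col3a1), and the part of either cell type in the results was not tested. In such bulk samples, fewer cells of a type and less RNA per cell cannot be told apart.

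Mmp9, which cuts gelatin and basement membrane collagen, was the 1 Mmp past the threshold. It had 423, 384 and 425 with ET-1, 361, 299 and 332 with ET-2, 385, 459 and 508 with ET-3, and 288, 220.5 and 386 untreated. ET-3 arrays stood above the untreated array of their number in each case, while ET-2 replicate 3 lay under it. The difference was 0.62 with ET-3 (adjusted p = 0.0474), 0.50 with ET-1 (0.131), 0.18 with ET-2 (0.587) and 0.435 for the mean (0.0615). The ET-3 call held in 2 of 16 alternatives, and it was lost without ET-3 replicate 1, 2 or 3 (0.0706, 0.194 and 0.121), untreated replicate 1 (0.11) or untreated replicate 2 (0.142). The second tested probe set of Mmp9 gave 0.47 with ET-3 (adjusted p = 0.079).

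Mmp2 and Mmp14, an enzyme and its membrane-anchored activator, followed the replicate number more than the treatment. Mmp2, the other gelatin-cutting enzyme, had 4451, 894 and 834 with ET-1, 4865, 631 and 1079.6 with ET-2, 4038, 809.6 and 1079 with ET-3, and 3527, 792 and 1185 untreated. Number 1 was high in every group, and the mean difference between endothelin and untreated was 0.011 (95% interval -0.26 to 0.28; adjusted p = 0.972). Mmp14 had 1647, 471 and 525 with ET-1, 1462, 595 and 734 with ET-2, 1359.6, 562 and 499 with ET-3, and 992, 400.3 and 595 untreated. Its mean difference of 0.32 did not pass the test (adjusted p = 0.151). It passed in 2 of 22 alternatives, without the arrays of replicate number 3 (0.0495) and without untreated replicate 3 (0.0334). Both fits gave the same difference, 0.51. The second tested probe set of Mmp14 had geometric means of 363 with ET-1, 366 with ET-2, 390 with ET-3 and 250 untreated. There, ET-3 replicate 3 (165) lay under its untreated array (189). Mmp23 had 618 to 646 with endothelin and 570.3 untreated under replicate 1, against 164 to 262 with endothelin and 180.1 and 216 untreated under the other numbers. These are the arrays on which the fibroblast marker sums were highest (51408 with ET-1, 54984 with ET-2, 49267 with ET-3 and 49984.5 untreated under replicate 1).

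**Figure D3:**
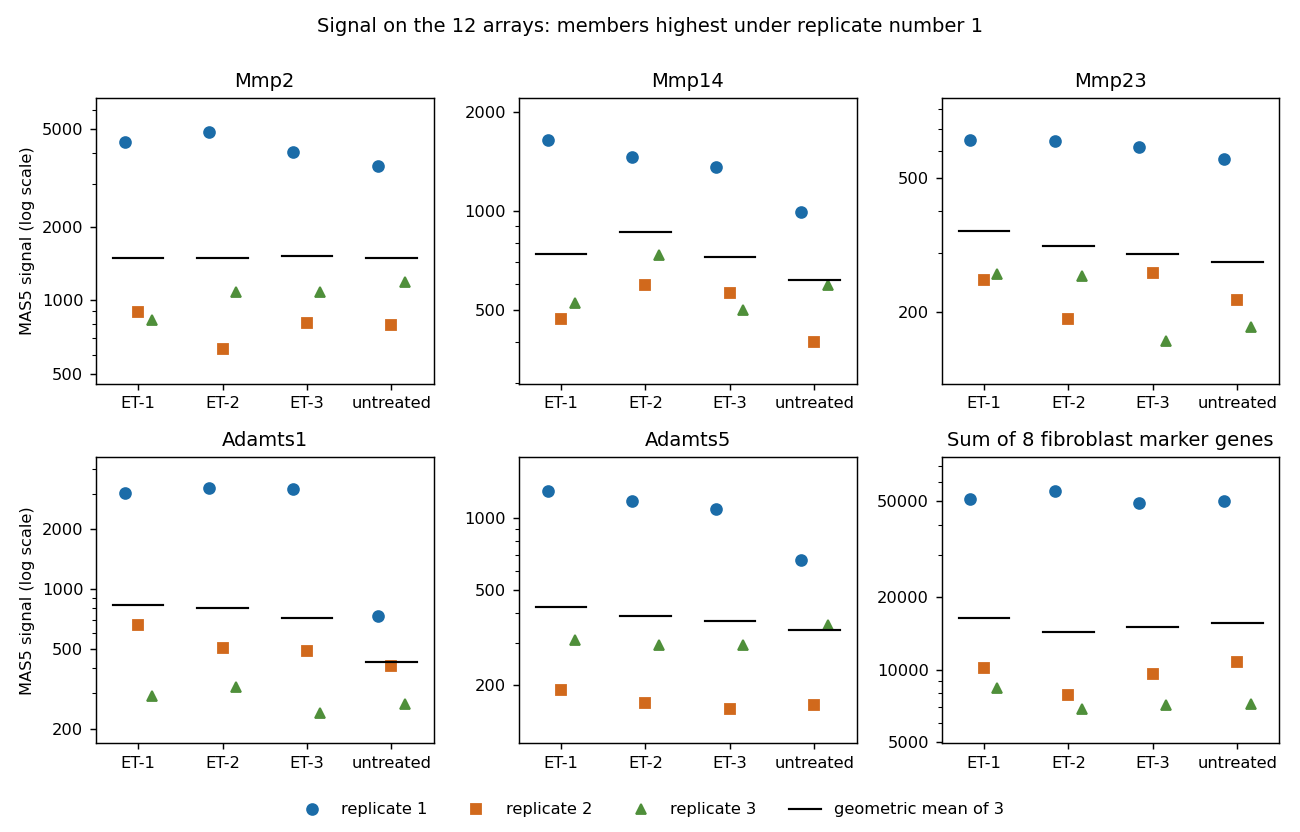
MAS5 signal (vertical axis, log scale) on each of the 12 arrays for Mmp2, Mmp14, Mmp23, Adamts1 and Adamts5, and the summed signal of 8 fibroblast marker genes in the last panel; symbols give the replicate number and lines the geometric mean of 3 arrays. The arrays of replicate 1 are highest in every group in each panel, and in Adamts1 the untreated one (729.8) lies below the 3 endothelin ones (3013 to 3201).

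Of the remaining membrane-bound or secreted Mmps tested, none passed the test. Mmp24, a membrane-anchored enzyme found mainly in neurons, had 899, 1056 and 874 with ET-1, 838, 1099 and 820.3 with ET-2, 861, 1008 and 958 with ET-3, and 1035, 1164 and 834 untreated (mean difference -0.11, adjusted p = 0.426). Mmp11, which is secreted already active, had 121 to 189 with endothelin and 125 to 229 untreated (-0.29, 0.307). Mmp15 and Mmp16, both membrane-anchored, and Mmp17, anchored by a lipid tail, had mean differences of -0.19, -0.14 and -0.012.

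In the chromosome 8 run, Mmp3 had the largest difference of the tested members and did not pass the threshold. Mmp3, which cuts many matrix proteins and activates other Mmps, had 633, 1668 and 51.1 with ET-1, 804, 519 and 72.8 with ET-2, 233, 859 and 58.9 with ET-3, and 69.4, 231 and 55.4 untreated. Under replicates 1 and 2 the endothelin arrays stood 7.08-fold and 3.92-fold above the untreated one, and under replicate 3, where every array was low, 1.09-fold. The untreated geometric mean was 96.1, under the limit for testing, against 378 with ET-1, 312 with ET-2 and 228 with ET-3. Untreated replicates 1 and 3 lay under that limit, so the folds under those numbers rest on untreated signals near background. Untreated replicate 2 (231) lay above it. The mean difference was 1.64 ± 0.45 (SE; 95% interval 0.67 to 2.61, adjusted p = 0.0557). It passed the threshold in 5 of 21 alternatives. These were median centring (0.0487) and the fit without the arrays of replicate number 3 (0.018). The others left out ET-1 replicate 3 (0.0271), ET-2 replicate 2 (0.0388) or untreated replicate 3 (2.40, 0.00585). The fits without replicate number 3 and without untreated replicate 3 gave the same difference, 2.40.

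Mmp13, a collagenase, had 121, 666 and 77.7 with ET-1, 139.8, 282 and 90.9 with ET-2, 143, 587 and 91.5 with ET-3, and 132, 106 and 93.5 untreated. The high signals were the 3 endothelin arrays of replicate 2, 4.54-fold above their untreated array, against 1.01-fold and 0.925-fold under replicates 1 and 3. Its mean difference was 0.70 (adjusted p = 0.276), and -0.048 without untreated replicate 2. Its 3 untreated arrays all lay under the limit of 147.5 (geometric mean 109), and only the endothelin arrays of replicate 2 lay above it. Mmp7, a small secreted enzyme, had 78.1, 410.0 and 168 with ET-1, 124, 272 and 182 with ET-2, 145, 509.6 and 154 with ET-3, and 57.6, 140.4 and 179 untreated, a mean difference of 0.77 (0.111). The 3 highest signals again were endothelin arrays of replicate 2, 2.74-fold above their untreated array on average. The untreated geometric mean was 113, under the limit for testing.

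Mmp10, a close relative of Mmp3, lay near background on average but not on 3 arrays. It had 5.77, 224 and 15 with ET-1, 61.4, 223 and 7.8 with ET-2, 59.3, 234 and 38.6 with ET-3, and 24.5, 5.09 and 34.9 untreated. Under replicate 2 the endothelin arrays were thus 44.6-fold above an untreated signal of 5.09, which is far below the median signal and gives the ratio little precision. Mmp12, the macrophage elastase, had 61.9 to 153 with endothelin and 84.5 to 116 untreated, and Mmp8, the neutrophil collagenase, 6.51 to 50.03 with endothelin and 12.1 to 32.9 untreated. Summed microglia and macrophage marker signals under replicate 2 were 2955 with ET-1, 2812 with ET-2, 3149.6 with ET-3 and 2553 untreated, against 1599.8 to 1906 under replicate 1 and 1624 to 2115 under replicate 3. Of that list 5 of 9 genes were tested and 0 were called, and Cx3cr1, Itgam, C1qb and Trem2 lay near background. Aif1 alone gave 1140 to 1365 of the sums under replicate 2. Cd68, tested in the same list, went the other way, with 214 to 289 under replicate 2 and 384 to 546 under replicate 3. The part of these cells in the Mmp signals was not tested.

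**Figure D4:**
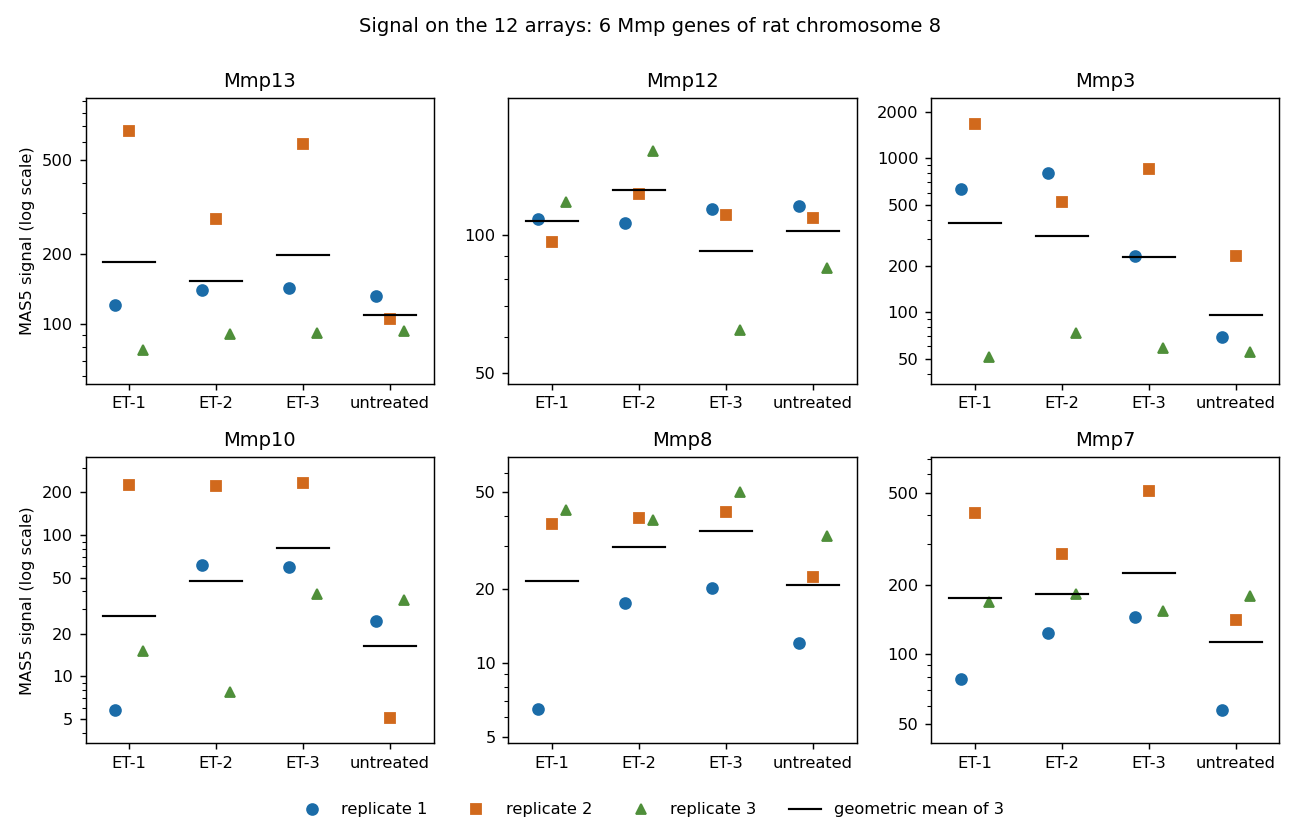
MAS5 signal (vertical axis, log scale) on each of the 12 arrays for the 6 neighbouring Mmp genes of rat chromosome 8; symbols give the replicate number and lines the geometric mean of 3 arrays. The endothelin arrays of replicate 2 stand out in Mmp13 (282 to 666), Mmp10 (223 to 234) and Mmp7 (272 to 509.6), while the replicate 3 arrays of Mmp3 (51.1 to 72.8) are all low.

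The 3 endothelins, given at the same dose and time, were compared in 3 pairs, which makes 81 comparisons of members. With limma, 0 of the 27 members and 0 of the 15521 probe sets tested passed the threshold in any pair, and 0 members did in any alternative run. At an unadjusted p under 0.05, 1 member differed for ET-2 against ET-1 (3.7% of all probe sets did), 0 for ET-3 against ET-1 (2.24%) and 3 for ET-3 against ET-2 (3.76%). The lowest adjusted p over the members was 0.9997 for ET-2 against ET-1, 0.9996 for ET-3 against ET-1 and 0.9989 for ET-3 against ET-2. These members were Adam15 (ET-2 minus ET-1, -0.20, 95% interval -0.37 to -0.033) and, for ET-3 minus ET-2, Mmp9 (0.44, 0.12 to 0.77), Adam19 (0.17, 0.015 to 0.32) and Adam23 (-0.13, -0.27 to -0.0022).

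The intervals bound how far the endothelins could differ. For Timp1 they ran from -0.46 to 0.30 (ET-2 minus ET-1), -0.43 to 0.32 (ET-3 minus ET-1) and -0.35 to 0.40 (ET-3 minus ET-2). For Adamts7 they ran from -0.17 to 0.57, -0.067 to 0.67 and -0.26 to 0.47 in the same pairs. For Mmp3 they were far wider, -1.46 to 0.91, -1.92 to 0.45 and -1.64 to 0.73. The median width of these intervals over the members was 0.65 in each pair.

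The replicate number held most of the variance of most members. More than 50% of the variance of log2 signal lay between replicate numbers in 21 of 27 members, and between treatment groups in 2 (Adamts7 with 78.4% and Mmp9 with 61.6%). The median shares in the members were 77.5% between replicate numbers, 10.3% between groups and 7.25% for the rest, against 68.7%, 10.4% and 16.8% over all probe sets tested. Mmp2 stood at 97.2% between numbers and 0.0144% between groups. Timp1 had 80.5% between numbers and 15.9% between groups, and Adam19 64.0% and 31.6%.

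**Figure D5:**
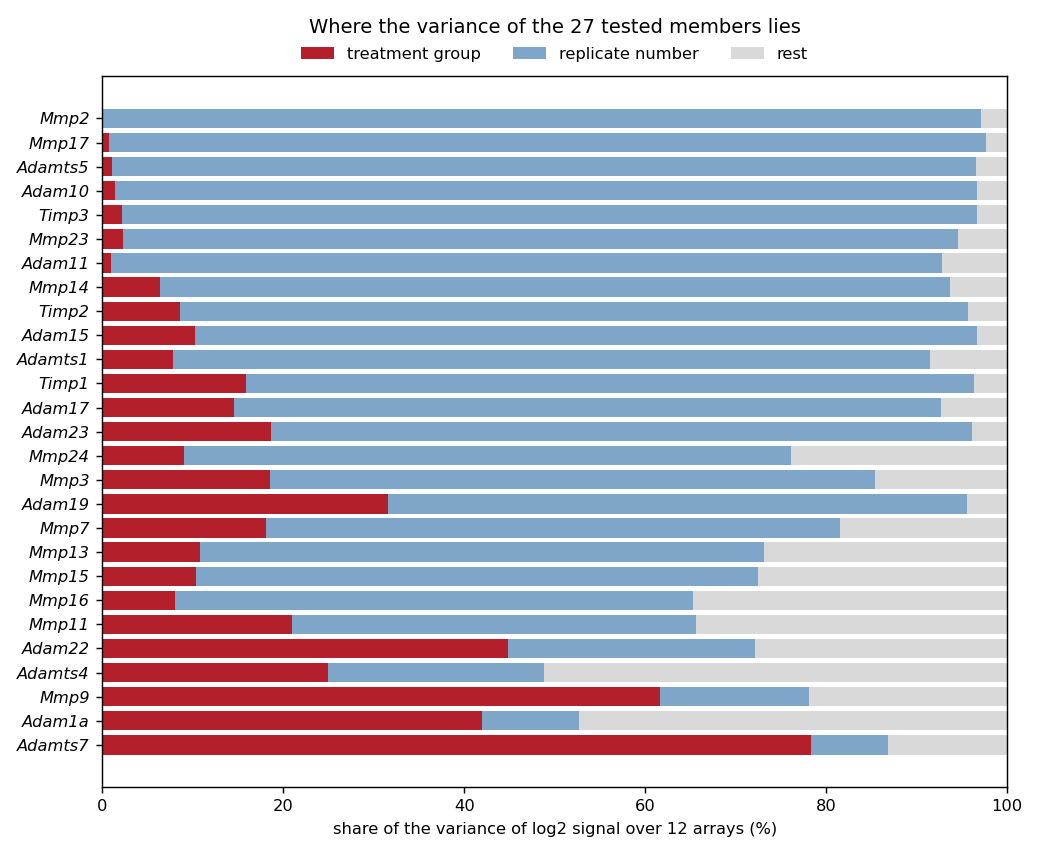
Share of the variance of log2 signal over the 12 arrays (horizontal axis, percent) that lay between treatment groups, between replicate numbers and in the rest, for the 27 tested members. Adamts7 (78.4%) and Mmp9 (61.6%) have most of their variance between groups, while Mmp2 has 97.2% between replicate numbers.

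The 24 members near background were Timp4, Mmp8, Mmp10, Mmp12, Mmp19, Mmp28, Adam2, Adam3a, Adam4, Adam6, Adam7, Adam8, Adam9, Adam18, Adam32, Adam33, Adamts6, Adamts8, Adamts9, Adamts10, Adamts12, Adamts15, Adamts16 and Adamts19. Their array signals ran from 1.27 to 261. When all 31042 probe sets were fitted, 0 of the 24 passed the threshold with any single endothelin, against 0.59% of all probe sets with ET-1, 0.435% with ET-2 and 0.879% with ET-3. For the mean 1 of 24 did (4.17%, against 2.03%), Adamts8, which was named after its values were seen. Adamts8, a secreted enzyme reported to hold back vessel growth, had 65.8, 61.6 and 44.4 with ET-1, 72.95, 55.1 and 35.6 with ET-2, 73.1, 57.9 and 9.04 with ET-3, and 14.2, 16.5 and 6.95 untreated. It was higher in 9 of 9 comparisons under a shared number, by 1.98 on average (adjusted p = 0.0299), at signals that all lay under the median of 147.5.

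Genes that act on or with these enzymes were read from 6 lists of 95 genes, of which 59 were tested. For the mean of the endothelins 12 of the 59 rose and 2 fell, against 3.54% and 1.35% of all probe sets tested. In the plasminogen system, whose protease plasmin activates several Mmps, 2 of 6 tested genes rose with each endothelin and for the mean. They were Plau, the urokinase that makes plasmin (1.03, adjusted p = 0.00388), and Serpine2, an inhibitor of it and of thrombin (0.79, 0.00563). Plau had 555, 677 and 747 with ET-1, 517, 528 and 982 with ET-2, 739.7 with ET-3 replicate 1, 500.5 and 701 with ET-3 replicates 2 and 3, and 339, 197 and 476 untreated, each endothelin array above the untreated array of its number. The median over this list was 0.075, against -0.028 over all probe sets tested.

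Of 9 tested convertases and other activators 1 rose, the serine protease Prss23 (0.68, adjusted p = 0.00249), and the list median was 0.0053. Of 8 other inhibitors and cofactors A2m, a broad protease inhibitor of plasma, rose (0.37, 0.0345) and Sfrp2, a secreted Wnt-binding protein, fell (-0.55, 0.0263), with a list median of 0.31. None of the 5 trafficking partners of Adam10 and Adam17 was called. Among 17 tested membrane substrates of sheddases, Cd44, the hyaluronan receptor, rose (0.53, 0.0189), as did the membrane-bound chemokine Cxcl16 (0.71, 0.0261), with a list median of 0.016.

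Among 14 tested matrix substrates 6 rose and 1 fell, with a list median of 0.29. The 4 with the smallest p were the basement membrane collagens Col4a1 (0.82, adjusted p = 0.000775) and Col4a2 (0.56, 0.00196), the laminin chain Lamb1 (0.36, 0.00111) and osteopontin, Spp1 (1.10, 0.00974). Fn1, fibronectin (0.30, 0.0149), and Tnc, tenascin C (2.04, 0.0372), also rose, and Col3a1, a fibrillar collagen (-0.27, 0.0144), fell. Tnc had 8145, 2715 and 494 with ET-1, 8983, 1586 and 716 with ET-2, 8419, 2199 and 510.2 with ET-3, and 526, 433 and 637 untreated. Its high signals were the endothelin arrays of replicates 1 and 2, as for Mmp3, while the replicate 3 arrays of ET-1 and ET-3 lay under their untreated array.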

How the data were processed

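Per the submitters' processing notes, the authors summarised Rat Genome 230 2.0 arrays with MAS5, and the deposited values are 1 intensity per probe set and array (31042 probe sets, 12 arrays) and not log-transformed. Trimmed by 2% at each end, the mean was 496.7 to 498.3 on every array, so the values appear scaled to a common mean; version, settings and detection calls were not used here. Of the probe sets, 20826 had 1 annotated symbol, 436 several and 9780 none, and only the first were named.

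Intensities were taken as log2 with no pseudocount or further normalization. The 15521 probe sets at or above the median mean log2 signal were tested with limma 3.58.1 in R 4.3.3: group means plus the replicate number as a block, eBayes with an intensity trend, two-sided, Benjamini-Hochberg adjustment over all tested. Folds are ratios of geometric means. The procedure was run on simulated data with additive replicate shifts and known changes in ET-1 only. The simulation held no response that differs between replicate numbers, so it cannot show how the procedure handles one.

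The replicate number was taken as a block because a comparison by replicate number was set for these genes. Arrays sharing a number also deviated together from their group means (r from 0.684 to 0.912 across probe sets in 18 pairs). For other numbers between groups r was -0.706 to -0.056. Deviations from a group mean sum to 0, so this negative r follows from the positive one and adds no evidence. The median residual SD was 0.127 with the block and 0.25 without it. The labels do not state what the number marks, so this pairing rests on that choice and on the values.

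All members past the threshold, the Timps, the 10 largest mean differences and the 3 members of each family with the brightest probe sets (a rule for naming only) are given with their arrays. In the other lists, up to 4 called genes were named by smallest p, with any others named after their values were seen. The members, the lists and the block were chosen with earlier results of these data known. Promoters are from RefSeq (GRCr8). Alternatives varied the block, filter, scaling, pseudocount, trend, groups, probe set and arrays.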

Additional observations from a re-analysis of the deposited data

How the results depend on the processing

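The comparisons of one endothelin with another gave 0 members under every alternative. Without the replicate block, 0 members were called with ET-1, ET-2, ET-3 or their mean, in place of 1, 2, 5 and 5. Without the intensity trend the counts were 0, 0, 1 and 2. The calls for the mean lost there were Adam17, Adam19 and Adam23. With only the groups compared in the fit they were 0 with ET-2 and 0 with ET-3; this setting was not run for the mean of the endothelins. With ET-2, the stricter filter (upper 30% of probe sets) gave 1 and centring each array on its median gave 5. With ET-3, no filter gave 3 and the stricter filter gave 3. Leaving out arrays or replicate numbers gave 0 to 6 members with ET-1, 0 to 5 with ET-2, 0 to 7 with ET-3 and 1 to 9 for the mean. Median centring turned the sign of small mean differences in Adamts4 (-0.0097), Mmp2 (-0.045) and Timp3 (-0.036), and it put the median of all probe sets with ET-2 at -0.12. Over the fits without arrays, the mean difference ran from -0.039 to 0.14 in Adamts4, -0.10 to 0.45 in Adamts5, -0.048 to 1.10 in Mmp13, -0.15 to 0.15 in Mmp2 and -0.089 to 0.12 in Timp3. For Mmp13 it ran from -0.20 to 1.26 with ET-1 and from -0.26 to 0.89 with ET-2. The cause of these shifts was not tested. Quantile normalization, a pseudocount of 32 and counting any tested probe set of a gene kept each count within 1.5 times its value.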

Other observations

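Adam32, known from testis and near background here, was also higher in 9 of 9 comparisons under a shared replicate number, and it was singled out after its values were seen. Its signal was 58.1, 38.8 and 73.2 with ET-1, 40.3, 44.2 and 93.1 with ET-2, 58.6, 48.9 and 70.5 with ET-3, and 21.1, 31.98 and 43.2 untreated, with ET-1 replicate 2 and ET-2 replicate 1 inside the untreated range. The mean difference was 0.87 in the fit of all 31042 probe sets and did not pass the test (adjusted p = 0.158). Endothelial markers lay near background for 6 of 9 genes on the arrays, photoreceptor markers for 4 of 4 and astrocyte and Müller glia markers for 5 of 7. Of 3 tested endothelial markers 0 rose and 1 fell for the mean of the endothelins. This was Kdr, the main receptor for vascular endothelial growth factor (-0.58 on the log2 scale, adjusted p = 0.0304). The others, Esam and Plvap, were not called. Esam ran from 73.7 to 320 with endothelin and from 97.8 to 147 untreated. Plvap ran from 94.9 to 434 with endothelin and from 231 to 314 untreated. None of the tested astrocyte and Müller glia markers was called.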
